A study of Homo sapiens with 20 samples.

Results

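The 19p12 cluster is a run of Krüppel-type zinc finger genes near the centromere of human chromosome 19, and 35 of its genes are described here in WT and CD47- Jurkat T cells. The 35 members were chosen by name from the 60719 genes of the deposited table, as zinc finger genes of this cluster, and the cluster was selected on results of the comparison of the 2 lines. The values between lines are therefore a description without tests. The changes with time and treatment within a line, and the difference of the time changes between the lines, were tested. These were not the comparison used for the selection, but earlier results of these data were known when the tests were chosen. On GRCh38 the members spanned chr19:19668796-24129968, a stretch of 4.46 Mb from ZNF101 to ZNF254, with 19 members on the plus strand and 16 on the minus strand. Another 173 genes of the table lay in the same stretch, most of them pseudogenes and noncoding transcripts.

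KRAB zinc finger proteins bind DNA through a row of C2H2 fingers, each of which contacts a few bases. Their KRAB domain recruits TRIM28, also called KAP1, which brings in the histone methyltransferase SETDB1 and HP1 proteins, and the bound site takes on histone H3 lysine 9 trimethylation. Many of these proteins silence transposable elements, and the family grew by repeated local duplication, so that neighbors such as those of 19p12 resemble each other closely. ZNF91 is known for repressing SVA elements and ZNF93 for repressing LINE-1 elements. Zinc finger gene clusters also carry histone H3 lysine 9 trimethylation over their own bodies in many cell types. In the canonical transcripts of the members, the longest open reading frame held between 5 fingers in ZNF738 and 36 in ZNF208, with a median of 13, and ZNF91 held 31.

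RNA was sequenced from Jurkat cells, a human T cell leukemia line (WT), and from JinB8, a CD47-deficient somatic mutant line derived from them (CD47-), so that the CD47- values come from 1 mutant line and not from several clones. For the assay both lines were plated in HITES, a serum-free medium whose components include insulin, transferrin, selenite and hydrocortisone. Each line gave 10 libraries, of untreated cells at 1 h and of 3 treatments at 1, 3 and 6 h each. Cells were activated on plates coated with antibodies to CD3 and CD28 (CD3+CD28), activated likewise with thrombospondin-1 added (CD3+CD28+TSP1), or given thrombospondin-1 without antibodies (TSP1). TSP1, a secreted ligand of CD47, was used at 1 μg/mL. The CD28 antibody was used at 4 μg/mL, while the CD3 antibody is listed at 2 mg/mL in the labels and at 2 μg/mL in the methods of the study. Each condition was sequenced once. The study's methods describe cells plated for each treatment and time, but do not say that the platings came from separately grown cultures. Untreated cells were not sampled after 1 h, so that time in the assay and time under treatment cannot be told apart.

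Library totals ran from 16107921 to 31737616 counts, and levels are given as CPM, that is counts scaled to a common library size, after TMM scaling, on which 3 counts equal 0.0979 to 0.156 CPM. The CD3+CD28+TSP1 library of CD47- cells at 3 h stood apart, with the lowest total and a highest correlation of 0.981 with any library of its line, against 0.991 to 0.995 for the other 19 libraries. CD47 itself ranged from 253.2 to 371.8 CPM in WT cells and from 124.2 to 165.3 CPM in CD47- cells. All 11 T cell markers were detected in every library (sum 2171 to 3045 CPM in WT and 1853 to 3070 CPM in CD47- cells). The summed levels of the myeloid, fibroblast and epithelial marker lists stayed below 10 CPM, and among B cell markers MS4A1 was at or near 0 while CD79A ranged from 33.9 to 53.9 CPM in WT and from 4.15 to 9.97 CPM in CD47- cells.

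Many of the members' promoters resembled each other. RefSeq start sites on GRCh38.p14 were matched for 28 of the 35 members (all but ZNF738, ZNF506, ZNF253, ZNF676, ZNF729, ZNF98 and ZNF99), and the window from 250 bases before to 50 bases after the start was read for each. The 12-base word shared by most of these windows, CTGTCACTCAGG, was picked for that, was searched on both strands, and stood in 18 of 28 member promoters (64.3%) against 38 of 35116 promoters of all genes (0.108%), which include the 18. The first set below is shown because the 4 promoters are alike while 3 of the genes, ZNF486, ZNF93 and ZNF626, had higher levels in CD47- cells and ZNF90 stayed low in both lines, with ZNF486 matching ZNF90 at 88.3%, ZNF93 at 88.0% and ZNF626 at 87.7% of 300 aligned bases. ZNF66 (87.7%) and ZNF737 (84.7%) also matched ZNF486, are not printed, and differed little between the lines (log2 fold changes 0.10 and -0.04). The 4 printed promoters lie at chr19:20166964-20167263, plus strand, chr19:20077750-20078049, plus strand, chr19:19900696-19900995, plus strand, and chr19:20661522-20661821, minus strand, are printed 5′ to 3′ along the gene, and carry the shared word in capitals.
ZNF486: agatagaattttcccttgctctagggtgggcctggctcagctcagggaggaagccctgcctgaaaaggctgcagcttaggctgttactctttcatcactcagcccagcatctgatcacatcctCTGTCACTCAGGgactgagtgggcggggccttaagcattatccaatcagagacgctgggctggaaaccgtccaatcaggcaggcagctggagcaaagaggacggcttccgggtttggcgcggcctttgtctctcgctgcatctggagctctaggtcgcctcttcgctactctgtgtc
ZNF90: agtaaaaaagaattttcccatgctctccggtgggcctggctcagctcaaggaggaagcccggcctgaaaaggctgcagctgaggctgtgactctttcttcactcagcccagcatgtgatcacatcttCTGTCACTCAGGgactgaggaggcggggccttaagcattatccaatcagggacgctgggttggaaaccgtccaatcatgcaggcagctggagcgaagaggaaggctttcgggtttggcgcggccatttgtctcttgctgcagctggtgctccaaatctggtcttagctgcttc
ZNF93: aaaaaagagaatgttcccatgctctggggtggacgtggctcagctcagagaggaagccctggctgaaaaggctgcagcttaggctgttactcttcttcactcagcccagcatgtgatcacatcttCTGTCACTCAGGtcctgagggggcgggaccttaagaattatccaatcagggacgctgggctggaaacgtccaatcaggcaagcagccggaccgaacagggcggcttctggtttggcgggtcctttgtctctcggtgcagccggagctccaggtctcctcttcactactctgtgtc
ZNF626: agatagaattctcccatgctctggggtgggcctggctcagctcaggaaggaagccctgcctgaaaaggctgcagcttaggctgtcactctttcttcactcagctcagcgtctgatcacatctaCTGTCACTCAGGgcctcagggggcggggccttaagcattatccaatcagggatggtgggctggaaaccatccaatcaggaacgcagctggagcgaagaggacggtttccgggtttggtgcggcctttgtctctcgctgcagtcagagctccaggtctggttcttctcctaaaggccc

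The second set shows ZNF714 and ZNF431, adjacent genes whose promoters were the most alike of all pairs (91.0%). They lie at chr19:21081953-21082252, plus strand, and chr19:21141790-21142089, plus strand, with the same word in capitals.
ZNF714: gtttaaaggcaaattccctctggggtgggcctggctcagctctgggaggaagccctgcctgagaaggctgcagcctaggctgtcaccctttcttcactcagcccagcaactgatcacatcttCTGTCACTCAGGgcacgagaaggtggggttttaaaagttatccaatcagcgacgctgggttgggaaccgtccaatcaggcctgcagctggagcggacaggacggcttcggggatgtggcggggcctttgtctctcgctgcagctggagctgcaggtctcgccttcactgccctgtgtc
ZNF431: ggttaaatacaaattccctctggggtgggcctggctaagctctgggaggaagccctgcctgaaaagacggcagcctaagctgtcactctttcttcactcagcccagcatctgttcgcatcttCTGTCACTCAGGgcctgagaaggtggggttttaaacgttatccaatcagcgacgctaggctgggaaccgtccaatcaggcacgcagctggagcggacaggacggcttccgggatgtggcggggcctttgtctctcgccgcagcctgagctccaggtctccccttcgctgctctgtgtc

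In these windows the word began at position -127 from the start site in ZNF486 and ZNF626, -123 in ZNF90, -125 in ZNF93, and -128 in ZNF714 and ZNF431. Matches are a description of the sequence and not of a bound factor. The 28 member promoters held 8 to 18 CpG dinucleotides, with a median of 10, against a median of 14 over all promoters.

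The cluster was neither uniformly on nor off in these T cells. In all, 25 of the 35 members passed the low-count filter, and the other 10 stayed below a mean of 1 CPM in both lines. Of the 10, 8 were neighbors: ZNF208, ZNF257, ZNF676, ZNF729, ZNF98, ZNF492, ZNF99 and ZNF730 formed an unbroken run over 1.21 Mb (chr19:21932958-23147221) between the expressed genes ZNF43 and ZNF724. ZNF506 and ZNF90 were the remaining members under the filter. ZNF729 had 2 counts in all WT libraries together and 0 in CD47- cells. Levels between genes were compared only per kilobase of the canonical transcript: in WT cells ZNF91 was highest at 30.6 CPM per kb, followed by ZNF675 at 25.3, ZNF430 at 23.4, ZNF101 at 23.0 and ZNF714 at 22.3 CPM per kb. In CD47- cells the order was ZNF101 at 33.1, ZNF675 at 28.5, ZNF724 at 20.3, ZNF14 at 17.9 and ZNF430 at 17.1 CPM per kb, and ZNF91 stood at 14.8 CPM per kb. The RNA came from bulk cells, so fewer cells with a transcript and less transcript per cell cannot be told apart anywhere below.

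**Figure D1:**
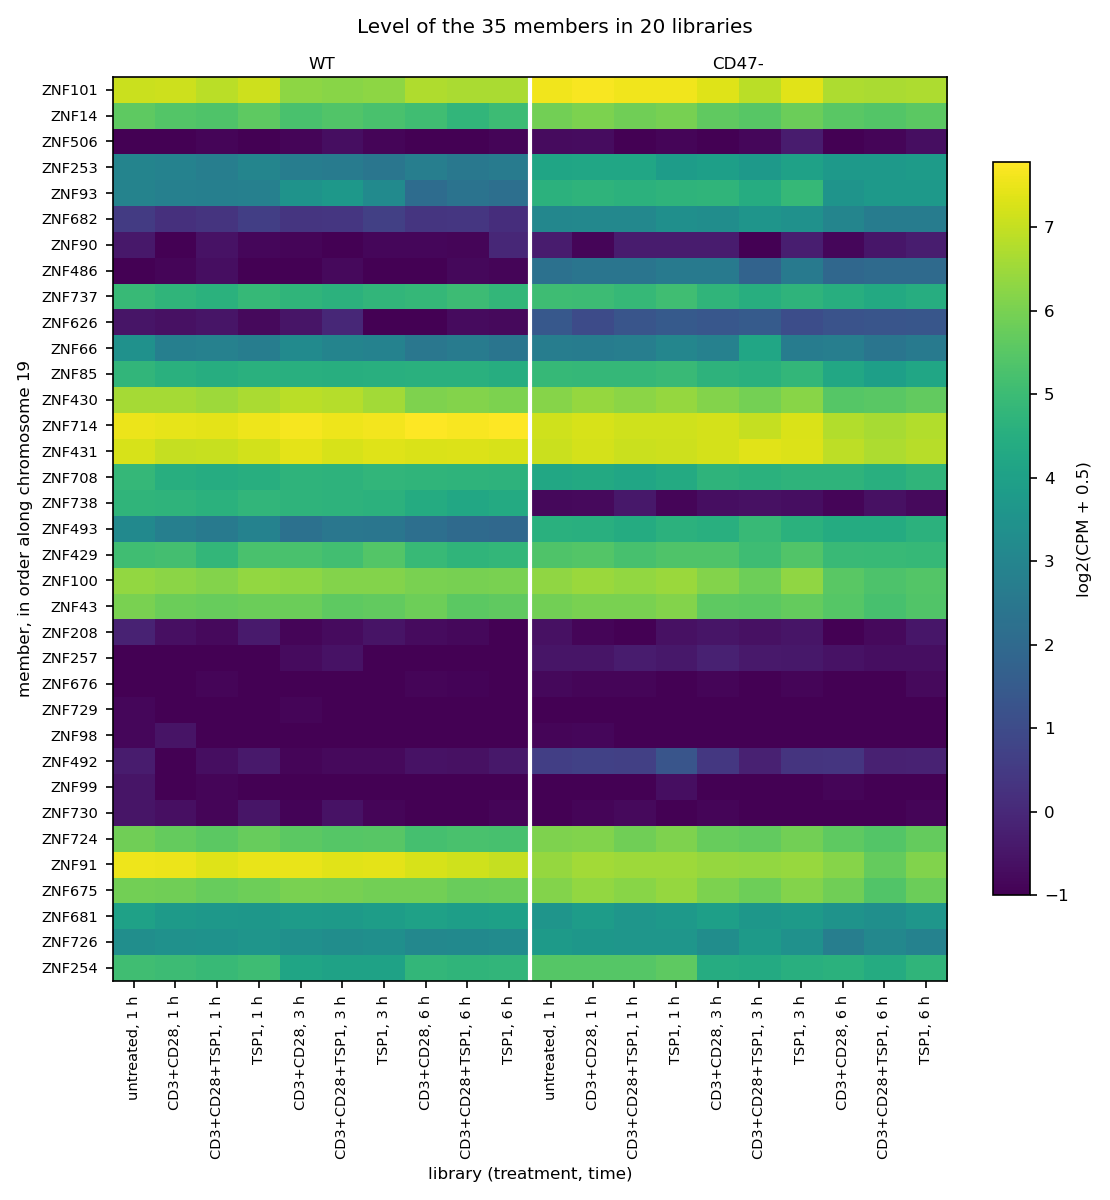
Level of each of the 35 members (rows, in order along chromosome 19) in each of the 20 libraries (columns), as log2(CPM + 0.5) on the color scale. The run of dark rows from ZNF208 to ZNF730 was near 0 in WT cells and, but for ZNF492 at 0.366 to 2.00 CPM, in CD47- cells, ZNF486 and ZNF626 were near 0 in WT alone, and ZNF738 was near 0 in CD47- alone.

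Between the lines, 9 of the 25 tested members were called higher in CD47- cells and 4 lower, beside 19.8% higher and 20.6% lower among all 16327 genes tested, and nothing is read from these counts because the cluster was selected on this comparison. Log2 fold changes of single members are given as levels and not as tests. Each edgeR SE was worked back from the fit, as the size of the fold change over the square root of its F statistic. It therefore holds the same information as the test, and nothing is read from it between the lines. The ranges of the 2 lines did not overlap for 8 tested members, of which 5 had the higher values in the CD47- line and 3 in WT. Nothing is read from this count either: no share over all genes stands beside it, and it holds ZNF486, ZNF626 and ZNF738. The median log2 fold change of the 25 was 0.10, against -0.01 over all genes, with 15 members above 0 and 10 below. ZNF486, ZNF626 and ZNF738 passed the filter through the libraries of 1 line, with ZNF626 reaching its level in 1 WT library, so a large difference was built into their passing.

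ZNF486 and ZNF626 were nearly off in WT cells and on in CD47- cells, and ZNF682 was low in WT cells. ZNF486 had 0 to 3 counts per library in WT cells (9 in all 10 libraries together) and a lowest, median and highest level of 2.96, 4.61 and 5.71 CPM in CD47- cells. The ratio of the pooled levels was 117 (95% counting interval 61.4 to 255). This interval, like those that follow, covers only the counting error of the line with the lower level. It takes the level of the other line as fixed and is no test of the difference. ZNF626 ranged from 0 to 0.488 CPM with a median of 0.131 CPM in WT cells and from 1.5 to 2.36 CPM with a median of 2.01 CPM in CD47- cells, a ratio of 13.3 (9.53 to 19). ZNF682 ranged from 0.599 to 1.08 CPM with a median of 0.801 CPM in WT cells and from 5.90 to 11.5 CPM with a median of 8.06 CPM in CD47- cells (log2 fold change 3.34, SE 0.149). For these 3 genes every CD47- library lay above every WT library. Between them on the chromosome lay ZNF90, which stayed at or below 0.479 CPM in every library of both lines although its promoter was the closest match to that of ZNF486, and ZNF737, with a median of 27.1 CPM in WT cells and of 25.9 CPM in the CD47- line.

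A further 3 members were on in both lines and more than 2-fold higher in CD47- cells. ZNF493 had a lowest, median and highest level of 3.42, 5.05 and 8.43 CPM in WT cells and 20.6, 23.2 and 29.5 CPM in CD47- cells (2.14, SE 0.142). ZNF253 went from 5.02, 6.16 and 7.41 CPM to 12.7, 14.6 and 17.9 CPM (1.28, SE 0.0964). ZNF93 went from 3.83, 6.62 and 12.2 CPM to 11.1, 24.5 and 28.9 CPM (1.58, SE 0.226), and its ranges overlapped although CD47- was higher in each of the 10 pairs matched for treatment and time. ZNF101 (0.53, SE 0.161), ZNF14 (0.45, SE 0.107) and ZNF724 (0.32, SE 0.102) were the others of the 9, all with overlapping ranges. ZNF101 was higher in 8 of 10 pairs, ZNF14 and ZNF724 in 10 of 10. Of the ZNF724 transcript only 49.0% of windows as long as a read were unique, because an annotated readthrough gene covers the rest, so its level is uncertain.

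ZNF738 was the member that differed most in the other direction. It had 18.7, 24.6 and 27.0 CPM in WT cells as lowest, median and highest and 1 to 6 counts per library in CD47- cells (27 counts in all), a ratio of 209 (95% counting interval 144 to 318). The gene lies at chr19:21358930-21388582, and the next gene downstream on the same strand is ZNF493 (chr19:21397119-21427577), which differed in the opposite direction. A pseudogene on the same strand inside ZNF738, AC010615.1, shares 1392 of its 6053 transcript windows and was likewise lower in CD47- cells, at 0.0477 ± 0.0550 CPM against 6.01 ± 1.51 CPM in WT (SD, n = 10), so reads of the 2 could have been exchanged.

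ZNF91, the SVA repressor, had 129.7, 168.3 and 187.8 CPM in WT cells and 51.5, 84.0 and 94.5 CPM in CD47- cells (-1.05, SE 0.0966). ZNF714 had 171.5, 194.2 and 219.6 CPM in WT cells and 99.1, 141.7 and 155.5 CPM in CD47- cells (-0.56, SE 0.0847). Every WT library lay above every CD47- library for both. ZNF430 was lower in CD47- cells in all 10 pairs (-0.46, SE 0.134), with ranges that overlapped at 65.6 to 116.1 CPM and 44.2 to 84.4 CPM. The other 12 tested members were in neither count, with log2 fold changes from -0.20 in ZNF681 to 0.28 in ZNF254. These counts depend on the model and are no more than a description in any of them: they were 11 and 4 with the pairs as a block (ZNF254 and ZNF429 added) and 10 and 7 with a term for time (ZNF254, ZNF431, ZNF681 and ZNF708 added).

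These 12 members had ranges that overlapped between the lines in each case. They are given in their order along the chromosome as lowest, median and highest level. ZNF737 had 24.1, 27.1 and 32.1 CPM in WT cells and 19.9, 25.9 and 33.8 CPM in the CD47- line. ZNF66 had 4.88, 6.66 and 10.5 CPM in WT cells and 4.84, 6.16 and 17.8 CPM in the CD47- line, its highest value being that of the library that stood apart. ZNF85 had 21.6, 22.9 and 27.1 CPM in WT cells and 15.1, 26.3 and 30.3 CPM in the CD47- line. These 3 differed by -0.04, 0.10 and 0.07 on the log2 scale. ZNF431 had 127.5, 150.5 and 169.8 CPM in WT cells and 104.5, 136.4 and 165.8 CPM in the CD47- line. ZNF708 had 21.3, 25.4 and 28.2 CPM in WT cells and 17.8, 23.3 and 26.3 CPM in the CD47- line. ZNF429 had 26.3, 33.8 and 42.3 CPM in WT cells and 29.1, 38.7 and 42.8 CPM in the CD47- line. The first 2 of these lay slightly lower in the CD47- line (-0.14 and -0.13) and ZNF429 slightly higher (0.14). ZNF100 had 62.9, 70.7 and 80.6 CPM in WT cells and 39.5, 75.3 and 87.0 CPM in the CD47- line. ZNF43 had 46.9, 54.3 and 64.5 CPM in WT cells and 37.2, 49.7 and 70.8 CPM in the CD47- line. ZNF675 had 52.6, 58.6 and 63.8 CPM in WT cells and 41.3, 68.2 and 83.1 CPM in the CD47- line. In all 3 the CD47- libraries spread more widely than the WT libraries, on both sides of them, with the 1 h libraries high and the 6 h libraries low. ZNF681 had 12.1, 14.1 and 15.8 CPM in WT cells and 9.97, 11.8 and 15.1 CPM in the CD47- line. ZNF726 had 8.0, 9.79 and 11.4 CPM in WT cells and 6.33, 11 and 13.4 CPM in the CD47- line. ZNF254 had 16.2, 27.4 and 33.7 CPM in WT cells and 20.1, 25.1 and 48.2 CPM in the CD47- line. The 3 medians differed little between the lines, although the highest ZNF254 values were those of CD47- cells at 1 h.

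Of the 13 members in the counts between the lines, 4 more had overlapping ranges beside ZNF93. ZNF101 had 74.5, 103.8 and 136.6 CPM in WT cells and 101.3, 165.0 and 208.0 CPM in the CD47- line. The CD47- median was above the highest WT library there. ZNF14 had 27.2, 39.4 and 48.3 CPM in WT cells and 42.2, 52.4 and 65.2 CPM in the CD47- line. ZNF724 had 36.1, 45.8 and 58.0 CPM in WT cells and 43.1, 56.1 and 69.7 CPM in the CD47- line. ZNF430 had 65.6, 94.9 and 116.1 CPM in WT cells and 44.2, 71.8 and 84.4 CPM in the CD47- line.

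**Figure D2:**
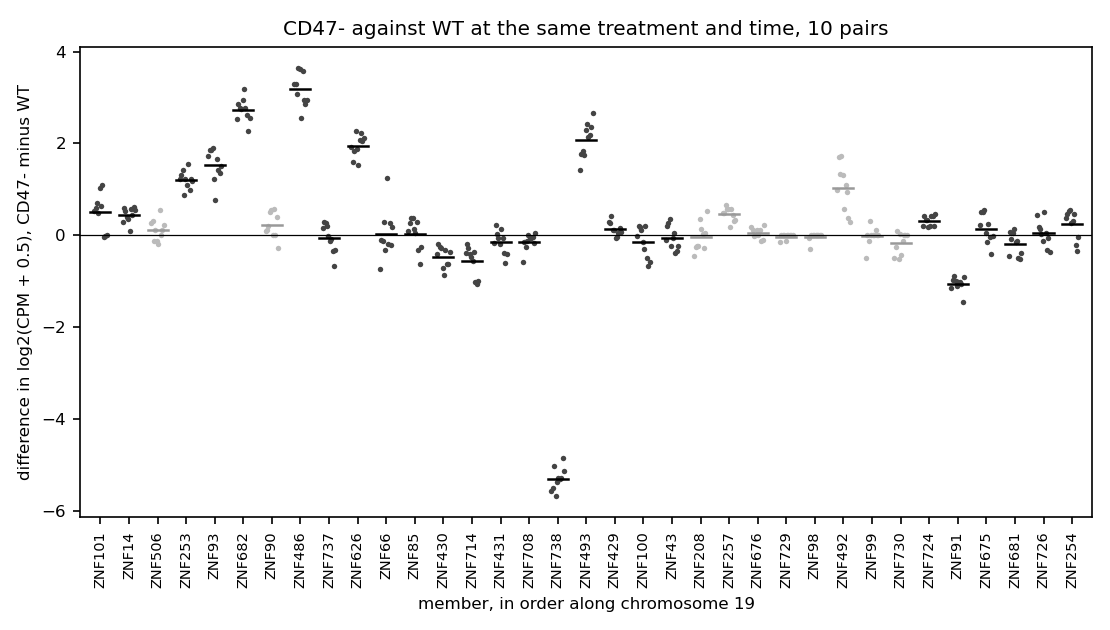
Difference in log2(CPM + 0.5) between the CD47- and the WT library of the same treatment and time, for each of the 35 members in order along chromosome 19. Points are the 10 pairs and bars their means, in black for the 25 tested members and in gray for the others, and ZNF682, ZNF486, ZNF626, ZNF493, ZNF93 and ZNF253 lie above 0 in all 10 pairs while ZNF738, ZNF91, ZNF714 and ZNF430 lie below 0 in all 10.

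Within the run of genes under the filter, ZNF492 stood out after its values were seen: 7 to 49 counts per CD47- library (0.366 to 2.00 CPM) against 0 to 6 counts per WT library (0 to 0.289 CPM), with no overlap and a ratio of the pooled levels of 6.1 (95% counting interval 4.34 to 8.67). In CD47- cells it was highest in the 4 libraries at 1 h (1.06, 1.13, 1.10 and 2.00 CPM). ZNF257 had 54 counts in all CD47- libraries and 6 in all WT libraries, a ratio of 8.75 (4.02 to 23.8). Both intervals cover the counting error of the WT line only, leave out the spread between libraries, and are no test. ZNF492 shares 600 of 4122 transcript windows with its neighbor ZNF98, which had 3 counts in all CD47- libraries. The single libraries of ZNF257 held 0 to 4 counts in WT and 3 to 9 counts in CD47- cells. For the remaining genes the ranges over the WT and then the CD47- libraries were 0 to 3 and 0 to 7 in ZNF506, 0 to 12 and 0 to 8 in ZNF90, 0 to 8 and 0 to 5 in ZNF208, 0 to 1 and 0 to 2 in ZNF676. They were likewise 0 to 4 and 0 to 2 counts in ZNF98, 0 to 4 and 0 to 3 in ZNF99 and 0 to 5 and 0 to 2 in ZNF730.

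Counted over the canonical transcripts, 30 of the 35 members had at least 95% of their windows as long as a read unique among all annotated transcripts. The exceptions were ZNF724, ZNF98 (72.4%), ZNF208 (74.2%), ZNF738 (77.0%) and ZNF492 (85.4%). Of 12 other tested genes of the interval, 0 were called higher and 4 lower in CD47- cells: AC010615.1, AC123912.4 (-1.87), IPO5P1 (-0.71) and AC092329.4 (-0.36).

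Many members of the cluster differed between 1 h and 6 h, most of them being lower at 6 h. From 1 h to 6 h, 12 of the 25 tested members fell and 4 rose in WT cells, beside 24.8% of all genes tested that fell and 25.7% that rose. In CD47- cells 19 members fell and 1 rose, beside 27.0% and 26.0% of all genes. The median log2 change of the members was -0.27 in WT and -0.47 in CD47- cells, against -0.003 over all genes in both lines. These and all following changes were called by edgeR's quasi-likelihood test at an adjusted p of 0.05 over all 16327 genes, in a model of all 20 libraries. The untreated library of each line has its own term there, so the tested changes with time rest on the treated libraries. The same 10 members fell in both lines: ZNF101, ZNF14, ZNF93, ZNF430, ZNF429, ZNF100, ZNF724, ZNF91, ZNF726 and ZNF254. The share of all genes that fell in both lines was not worked out, so nothing is read from this count. The 4 that rose in WT cells were 1 without the CD3+CD28+TSP1 or the TSP1 library of WT cells at 1 h, 2 without their CD3+CD28 library at 6 h, and 2 with DESeq2 or limma voom, and the 12 that fell were 8 without that library of 6 h. ZNF708 rose in both lines, and ZNF486, ZNF626 and ZNF66 were called in neither.

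Summed over the 35 members, WT cells had 1233 ± 72.0 CPM after 1 h (SD, n = 4), 1195 ± 42.4 CPM after 3 h (SD, n = 3) and 1116 ± 29.3 CPM after 6 h (SD, n = 3). The mean at 1 h includes the untreated library, which has no counterpart at 3 h or 6 h. The CD47- line had 1281 ± 50.6, 1144 ± 82.9 and 859.6 ± 56.3 CPM at the same times, so that all 3 libraries at 6 h (794.6 to 893.2 CPM) lay below all others of that line. A few abundant members make up much of this sum. Without ZNF714, the member with the highest mean CPM in WT cells, the means of CD47- cells were 1136, 999.9 and 754.3 CPM.

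**Figure D3:**
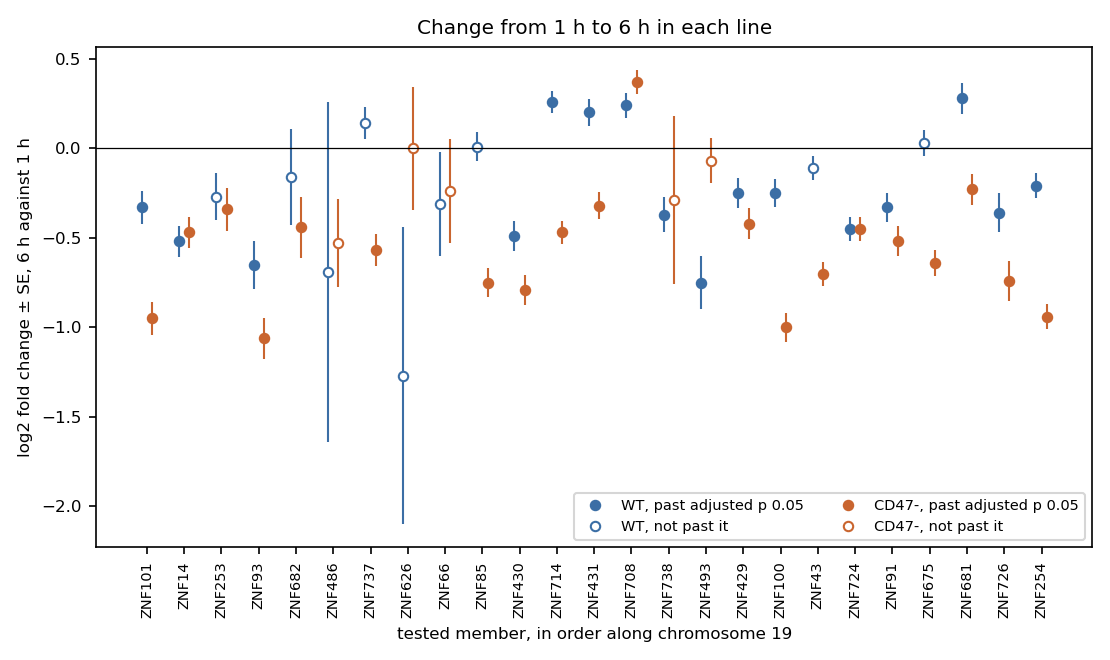
Log2 fold change from 1 h to 6 h (vertical axis, with its SE) for each of the 25 tested members in order along chromosome 19, in WT (blue) and CD47- cells (orange). Each SE was worked back from the F statistic of the test. Filled points passed an adjusted p of 0.05, and the wide bars of ZNF486 and ZNF626 in WT cells rest on a few counts.

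ZNF254, at the centromeric end of the cluster, had the largest called change from 1 h to 3 h in both lines. In WT cells it stood at 33.7, 31.7, 29.7 and 32.5 CPM in the 4 libraries at 1 h, at 17.3, 16.2 and 16.3 CPM at 3 h, and at 27.5, 26.2 and 27.2 CPM at 6 h. CD47- cells had 44.1, 43.9, 43.4 and 48.2 CPM at 1 h, at 21.1, 20.1 and 22.8 CPM at 3 h, and at 23.8, 20.5 and 26.5 CPM at 6 h. In both lines the 3 h libraries lay below every 1 h library, by -0.91 (SE 0.0716, adjusted p = 9.46e-07, edgeR) in WT and -1.08 (SE 0.0703, adjusted p = 3.93e-07) in CD47- cells. From 3 h to 6 h it rose again in WT cells (0.70, SE 0.0715, adjusted p = 6.31e-06) and was not called in CD47- cells (0.14, adjusted p = 0.143). A noncoding transcript on the same strand, AC092279.1, overlaps ZNF254 and ranged over 24.9 to 39.5 CPM in WT libraries and 16.3 to 47.6 CPM in those of CD47- cells. Its part in the ZNF254 counts was not tested.

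ZNF101, at the opposite end of the cluster, followed a like course in WT cells and not in CD47- cells. In WT cells it had 134.7, 136.6, 117.6 and 136.6 CPM at 1 h, 78.5, 74.5 and 78.4 CPM at 3 h, and 105.6, 102.0 and 101.8 CPM at 6 h. CD47- cells had 193.6, 208.0, 191.5 and 191.8 CPM at 1 h, 162.0, 116.4 and 168.0 CPM at 3 h, and 102.6, 101.3 and 102.9 CPM at 6 h. The WT level dipped at 3 h and partly returned (3 h to 6 h 0.42, SE 0.0907, adjusted p = 0.00234, edgeR), while the CD47- level went on down (-0.53, SE 0.0903, adjusted p = 0.000449) and met the WT level at 6 h. The difference between lines in log2(CPM + 0.5), averaged over the pairs of a time, went from 0.58 after 1 h through 0.93 after 3 h to -0.01 after 6 h. ZNF93, the LINE-1 repressor, did the reverse at 3 h: in WT cells it rose from 6.35 to 7.12 CPM at 1 h to 8.79 to 12.2 CPM at 3 h (0.70, SE 0.125, adjusted p = 0.000721) and then fell to 3.83 to 4.57 CPM. In CD47- cells ZNF93 held at 21.3 to 28.9 CPM through 3 h and fell to 11.1 to 12.6 CPM at 6 h (6 h against 1 h -1.06, SE 0.115, adjusted p = 3.4e-06).

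The changes at 3 h were counted in the same way, with no test of the counts between the lines. Of the 25 tested members 3 rose (ZNF93, ZNF431 and ZNF708) and 2 fell (ZNF101 and ZNF254) in WT cells, beside 16.9% and 17.4% of all genes (limma voom called 6 that rose). In CD47- cells 1 rose (ZNF708) and 9 fell, beside 18.0% and 20.1% of all genes, the largest falls after ZNF254 being those of ZNF43 (-0.44), ZNF101 (-0.42) and ZNF737 (-0.37). ZNF708 rose by 0.39 (SE 0.0688, adjusted p = 0.000715, edgeR) and ZNF675 fell by 0.31 (SE 0.0712, adjusted p = 0.00423) in these cells. Without the CD3+CD28+TSP1 library of CD47- cells at 3 h the counts were 4 and 4 in WT and 1 and 8 in CD47- cells. Without the CD3+CD28+TSP1 library of WT cells at 1 h 4 fell in WT cells, and without the CD3+CD28 or the TSP1 library of CD47- cells at 3 h 2 rose in CD47- cells. From 3 h to 6 h, 2 members rose (ZNF101 and ZNF254) and 7 fell in WT cells, beside 20.6% and 18.8% of all genes. In CD47- cells 0 rose and 16 fell, beside 19% and 19.9%, and with the same library left out 10 fell in WT and 16 in CD47- cells. After ZNF93 (-1.34) and ZNF254, the members with the smallest p in WT cells were ZNF430 (-0.65, SE 0.0826), ZNF429 (-0.44, SE 0.0849) and ZNF101, and in CD47- cells, after ZNF93 (-1.07), ZNF100 (-0.69, SE 0.0806), ZNF714 (-0.45, SE 0.0620), ZNF85 (-0.55, SE 0.0821), ZNF430 (-0.55, SE 0.0841) and ZNF431 (-0.49, SE 0.0759). The 0 also held with DESeq2 and limma voom, and no member with a log2 change above 0 reached an unadjusted p of 0.05.

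**Figure D4:**
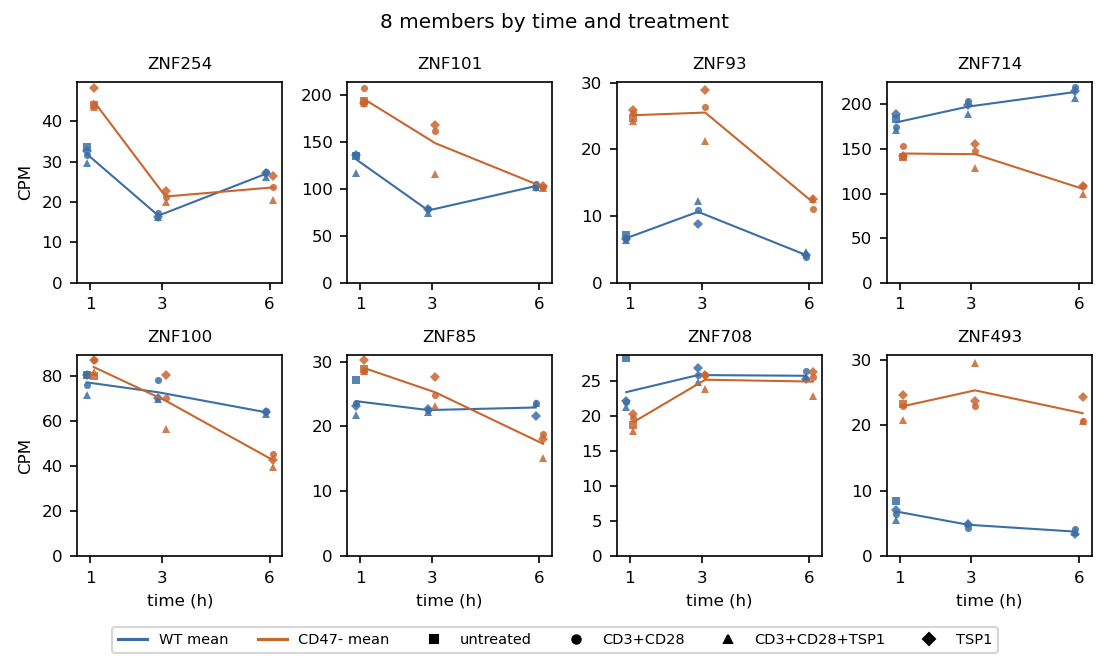
CPM of 8 members (panels) at 1, 3 and 6 h in WT (blue) and CD47- cells (orange), with 1 point per library, the marker giving the treatment and lines joining the means. ZNF254 and ZNF101 drop at 3 h and return in part in WT cells, ZNF714 rises in WT and falls in CD47- cells, and the treatments at one time mostly lie close together, the CD3+CD28+TSP1 library of CD47- cells at 3 h being lower for ZNF101.

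The change from 1 h to 6 h was more negative in CD47- than in WT cells for 10 members and less negative for 1, by the interaction of line and time. Of all genes, 10.2% were called in the former direction and 6.46% in the latter. The 10 were ZNF85 (difference of the changes -0.76, SE 0.115), ZNF100 (-0.75, SE 0.112), ZNF254 (-0.73, SE 0.0983), ZNF714 (-0.73, SE 0.0872), ZNF737 (-0.72, SE 0.125), ZNF675 (-0.67, SE 0.101), ZNF101 (-0.61, SE 0.127), ZNF43 (-0.59, SE 0.0947), ZNF431 (-0.52, SE 0.107) and ZNF681 (-0.51, SE 0.124). Their adjusted p-values in edgeR ran from 0.000108 in ZNF714 to 0.0135 in ZNF681.

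ZNF714 went in opposite directions in the 2 lines. In WT cells it had 183.3, 174.8, 171.5 and 189.5 CPM at 1 h and 219.6, 206.8 and 215.3 CPM at 6 h (0.26, SE 0.0614, adjusted p = 0.00281, edgeR). In CD47- cells it had 141.3, 153.5, 142.1 and 142.6 CPM at 1 h and 108.5, 99.1 and 108.4 CPM at 6 h (-0.47, SE 0.0620, adjusted p = 1.99e-05). The 6 h libraries lay above all 1 h libraries in WT cells and below all of them in CD47- cells. Its neighbor ZNF431, with the most similar promoter, likewise rose in WT and fell in CD47- cells (0.20 and -0.32), as did ZNF681 (0.28 and -0.23). The WT rise of ZNF431 was lost in 12 of 27 alternative settings and that of ZNF681 in 8 of 27, and the CD47- fall of ZNF681 in 19 of 27.

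ZNF100 had 80.6, 76.0, 71.4 and 80.6 CPM at 1 h and 64.6, 62.9 and 64.1 CPM at 6 h in WT cells. The CD47- libraries had 80.1, 87.0, 81.6 and 87.0 CPM at 1 h and 45.5, 39.5 and 42.7 CPM at 6 h. The fall was -0.25 (SE 0.0791, adjusted p = 0.017, edgeR) in WT and -1.0 (SE 0.0804, adjusted p = 2.09e-07) in CD47- cells. ZNF85 stood between 21.6 and 27.1 CPM in every WT library and was not called there (0.01), while in CD47- cells it went from 28.5 to 30.3 CPM at 1 h to 15.1 to 18.9 CPM at 6 h (-0.75, SE 0.0816, adjusted p = 3.4e-06). ZNF43, ZNF675 and ZNF737 likewise fell in CD47- cells (-0.70, -0.64 and -0.57) and were not called in WT cells (-0.11, 0.03 and 0.14). ZNF430 fell by 0.49 (SE 0.0827) in WT and by 0.79 (SE 0.0839) in CD47- cells, with no called difference between the lines (-0.29, adjusted p = 0.107). ZNF675 encodes a protein reported to inhibit TRAF6 signaling.

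ZNF493 was the exception among the called members. It fell in WT cells from 8.43, 6.40, 5.49 and 6.98 CPM at 1 h to 4.17, 3.64 and 3.42 CPM at 6 h (-0.75, SE 0.150, adjusted p = 0.000861, edgeR). In CD47- cells it had 23.3, 23.0, 20.9 and 24.6 CPM at 1 h and 20.7, 20.6 and 24.3 CPM at 6 h, and was not called (-0.07). The difference of the changes was 0.68 (SE 0.195, adjusted p = 0.0295), and it was called in 18 of 26 alternative settings. It was lost with limma voom and without the CD3+CD28 or TSP1 library at 1 h or the CD3+CD28+TSP1 or TSP1 library at 6 h of WT cells, and without the CD3+CD28+TSP1 library at 1 h or the CD3+CD28 or TSP1 library at 6 h of CD47- cells. ZNF708, which rose in both lines by 0.24 in WT and 0.37 in CD47- cells, showed no called difference between them (0.13, adjusted p = 0.413). ZNF14 and ZNF724 fell by nearly equal amounts in both lines (-0.52 and -0.47 for ZNF14, -0.45 and -0.45 for ZNF724).

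No member passed the threshold in a comparison of treatments. Each comparison is 1 value over all times, because the model has no term for treatment by time. A response to treatment at a single time was not tested. No member was called for CD3+CD28+TSP1 against TSP1, CD3+CD28+TSP1 against CD3+CD28, or CD3+CD28 against untreated in either line, with edgeR, DESeq2 or limma voom. The last of these has 1 untreated library in each line, at 1 h, which is assumed to vary like the others, so that it says little about the members. Beside that, 15 genes of 16327, or 0.0919%, were called higher for CD3+CD28+TSP1 against TSP1 in WT cells with edgeR (in either direction 53 with DESeq2, 28 with limma voom and 46 in the additive model), and 0 genes in the other 5 contrasts with edgeR (0 to 7 with DESeq2, 0 with limma voom). At an unadjusted p of 0.05, 3 and 3 members passed in WT cells for the first 2 contrasts, against 5% and 2.24% of all genes. ZNF486 and ZNF626 were among those of the first contrast and ZNF486 among those of the second. They had 9 and 35 counts in all WT libraries together and passed the filter through the CD47- line, so nothing is read from them. In CD47- cells 10 of the 25 tested members passed for CD3+CD28+TSP1 against TSP1, all lower with activation, against 16.1% of all genes. For CD3+CD28+TSP1 against CD3+CD28 9 members passed, 8 of them lower, against 10.8%. The shares of all genes hold both directions and were not split, so nothing is read from the directions of the members. For these 2 contrasts, 5 and 6 members passed with DESeq2, against 13.8% and 9.1% of all genes. With limma voom the counts were 9 and 6, against 14.1% and 8.95%, and in the additive model 2 and 0, against 3.01% and 3.25%. ZNF738, with 27 counts in all CD47- libraries, passed the filter through WT libraries, so nothing is read from its value in CD47- cells. Without the CD47- library that stood apart the same 2 counts, which include ZNF738, were 7 and 6 members, against 9.27% and 2.91%. With that library left out, 225 genes were called for CD3+CD28 against untreated in WT cells, again with no member. ZNF675 had log2 values of -0.30 (SE 0.0716, adjusted p = 0.283) and -0.28 (SE 0.0717, adjusted p = 0.459) for CD3+CD28+TSP1 against TSP1 and against CD3+CD28 in CD47- cells, which share their CD3+CD28+TSP1 libraries. For CD3+CD28 against untreated in CD47- cells the ZNF675 value lay in the other direction (0.27, SE 0.109).

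Other gene groups were set beside the members without a test of the difference. Of 169 other tested zinc finger genes of chromosome 19, 73 fell (43.2%) and 23 rose from 1 h to 6 h in WT cells. In CD47- cells 76 fell (45.0%) and 23 rose. Their median log2 changes were -0.22 in WT and -0.21 in CD47- cells, so a fall in WT cells was not particular to the members. The changes differed between the lines for 17 in the direction of a lower value in CD47- cells and for 9 in the other. Of 196 tested zinc finger genes of other chromosomes, 60 fell and 53 rose in WT cells and 69 fell and 39 rose in CD47- cells. Of the 12 other genes of the 19p12 interval, 4 fell and 2 rose in WT cells and 7 fell and 0 rose in CD47- cells. Between the lines, 56 of the 169 were higher and 22 lower in CD47- cells, and 56 and 31 of the 196.

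**Figure D5:**
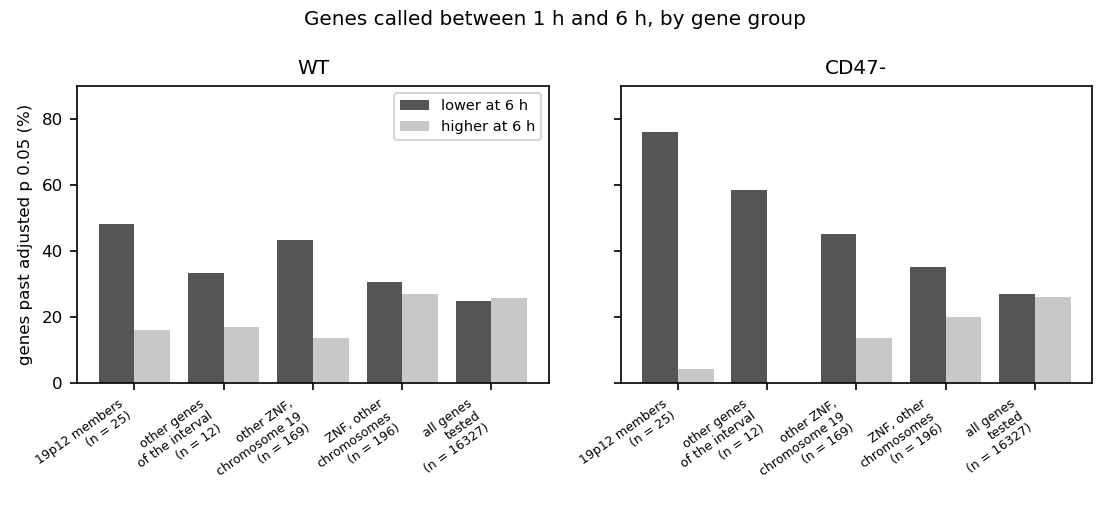
Share of tested genes past an adjusted p of 0.05 between 1 h and 6 h (percent), lower in dark and higher in light bars, for the 19p12 members and 4 other gene groups in WT and CD47- cells, with the number of tested genes in brackets. Among the members 48.0% fell in WT and 76.0% in CD47- cells, against 24.8% and 27.0% of all genes tested. Of the other zinc finger genes of chromosome 19, 43.2% fell in WT cells, near the share of the members, and 45.0% in CD47- cells.

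The partners through which KRAB zinc finger proteins act were taken from a list of 22 genes. TRIM28, the corepressor that binds the KRAB domain, had 203.5 ± 29.6 CPM in WT cells against 198.0 ± 45.3 CPM in the CD47- line (SD, n = 10) and was not called between the lines in edgeR (-0.04, adjusted p = 0.821). SETDB1 was not called either (0.21, adjusted p = 0.0669). For the genes of this paragraph the lines were compared in the model of line alone, without the pairs as a block. Of the 22 genes 6 were higher and 7 lower in CD47- cells (27.3% and 31.8%, against 19.8% and 20.6% of all genes), among them the histone methyltransferases SUV39H2 (-0.57, SE 0.0631) and SUV39H1 (-0.44, SE 0.0739), and the chromatin remodeler CHD3 (0.63, SE 0.149). From 1 h to 6 h 4 fell and 6 rose in WT cells and 10 fell and 4 rose in CD47- cells, with a median of 0.13 and -0.16. These are 18.2% and 27.3% of the list in WT and 45.5% and 18.2% in CD47- cells, against 24.8% and 25.7%, and 27.0% and 26.0%, of all genes. TRIM28 rose in both lines, by 0.22 in WT (SE 0.0766, adjusted p = 0.0249, edgeR) and by 0.76 in CD47- cells (SE 0.0770, adjusted p = 1.85e-06), and the rise was larger in CD47- cells (0.54, SE 0.108, adjusted p = 0.00449). ATRX, a chromatin remodeler of heterochromatin, fell by 0.58 in WT and by 1.35 in CD47- cells. Of 13 tested genes of a DNA methylation list 2 were higher and 3 lower in CD47- cells (15.4% and 23.1%), with DNMT3B, a de novo methyltransferase, at 12.8 ± 2.67 CPM in WT cells and 21.0 ± 6.35 CPM in the CD47- line (SD, n = 10), a log2 difference of 0.71 (SE 0.160).

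Transcript shares within a member were compared by their ranges over the libraries. For ZNF726 the transcript ENST00000531821.6 took 62.1% to 75.3% of the estimated counts in WT libraries and 32.1% to 51.9% in CD47- libraries, with no overlap, while the ranges of the whole gene overlapped between the lines. In every other member with a mean of at least 1 CPM the ranges of all transcripts with a share of at least 8% overlapped, although some means differed widely. In ZNF254 the mean share of ENST00000613065.4 was 20.9% in WT and 38.1% in CD47- cells and that of ENST00000357002.5 was 40.7% and 21.8%. In ZNF682, which had few counts in WT cells, that of ENST00000397165.7 was 32.6% and 60.9%. These shares are estimates by RSEM from reads that several transcripts share, and ZNF726 as a whole had 8.0 to 11.4 CPM in WT libraries and 6.33 to 13.4 CPM in CD47- libraries.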

How the data were processed

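Human Jurkat T cells of 2 lines were profiled by RNA-seq, 10 libraries per line. Per the labels and the study's methods adapters were removed by the authors with cutadapt 1.18, alignment to hg38 was by STAR 2.4.2a, and RSEM 1.3.3 quantified genes and transcripts of a GENCODE annotation. The deposited values are expected counts per gene and per isoform, which are estimates that need not be whole. They were rounded to whole numbers for the tests, and the transcript shares used the isoform values as deposited. The strand setting of the quantification is not given in the sources used here. The authors corrected a batch with ComBat whose libraries are not named, and this was not repeated. Of the deposited tables, 2 value columns that match no sample were not used.

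Of 60719 genes, 16327 passed edgeR's filterByExpr (minimum count 10, minimum total 15), and edgeR 4.0.16 (R 4.3.3) fitted quasi-likelihood models with TMM scaling and Benjamini-Hochberg adjustment over all of them, at a threshold of 0.05. The lines were compared in a model of line alone over 20 libraries, in which the 10 conditions of a line serve as its samples. Time and treatment were compared in a model of treatment and time within each line, so that p-values rest on the spread between libraries of the other conditions. It has no term for treatment by time, so a treatment contrast is 1 value over all times. The untreated library of a line has its own term and adds nothing to the estimates of change with time. Fold changes are CD47- minus WT, later minus earlier or more minus less treated, on the log2 scale. SEs of edgeR fits are the absolute fold change divided by the square root of the quasi-likelihood F statistic. Library totals were 16107921 to 31737616 counts, and floors (3 counts) cover counting error only. The intervals of ratios cover the counting error of the line with the lower level only and take the other level as fixed. DESeq2 1.42.0, limma 3.58.1 (voom with quantile normalization), upper-quartile scaling, other filters, an additive model, each line alone, other sets of pairs and each library left out were tried as alternatives. The same number marks the same treatment and time in both lines, and deviations of same-numbered libraries from their line's mean correlated with r from 0.126 to 0.602 over 10 pairs.

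The members, the gene lists and the tests were chosen with earlier results of these data known. The lowest, median and highest level are given for members with a mean of at least 1 CPM in a line and count ranges for the others. In each time comparison every called member was counted, and up to 6 with the smallest p were named. Further members were named where the lines differed in their change. ZNF492, ZNF257 and the isoform of ZNF726 were singled out after their values were seen. Positions come from the GENCODE 44 annotation of GRCh38 and promoter windows from RefSeq on GRCh38.p14. The scripts were tested on simulated data.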

Additional observations from a re-analysis of the deposited data

Results flagged for a closer look

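Of 50 sets of 10 libraries (each of the 25 tested members in each line), 4 held a library past the 95% limit of Dixon's test. Each set mixes times and treatments, so the rate of 1 in 20 that this limit has for like samples does not apply. In CD47- cells 2 of the 4 were in the CD3+CD28+TSP1 library at 3 h that also stood apart over all genes: ZNF66 at 17.8 CPM there, with the next library at 7.61 CPM, and ZNF493 at 29.5 CPM, with the next at 24.6 CPM. In WT cells ZNF626 reached 0.488 CPM in the CD3+CD28+TSP1 library at 3 h (next 0.201 CPM), and ZNF85 reached 27.1 CPM in untreated cells at 1 h (next 23.6 CPM).

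The change from 1 h to 6 h differed between the lines by the interaction term in edgeR for 11 of the 25 tested members. Of all 16327 genes tested, 16.6% were called, 10.2% with a lower and 6.46% with a higher change in CD47- cells. The differences, CD47- minus WT on the log2 scale, were -0.76 in ZNF85, -0.75 in ZNF100, -0.73 in ZNF254, -0.73 in ZNF714, -0.72 in ZNF737, -0.67 in ZNF675, -0.61 in ZNF101, -0.59 in ZNF43, -0.52 in ZNF431, -0.51 in ZNF681 and 0.68 in ZNF493. Time and treatment were sampled once per line, so these differences describe 1 series of libraries of each line.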

How the results depend on the processing

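No change of a member past the threshold turned round under any alternative. Of the alternative values for called members, differences of pairs and summed levels, 2585 stayed alike, 160 lost the call and 7 values without a test moved by more than the spread, and calls that other members gained are not in these numbers. Between the lines the counts are a description under every setting: the 9 members higher and 4 lower in CD47- cells were 11 and 4 with the paired libraries as a replicate block, 7 were lower with a term for time, and of the 13 members 10 were in the counts with the 6 activated pairs alone and 9 with the 4 unactivated pairs alone. Of the 4 members that rose from 1 h to 6 h in WT cells, 2 were called with DESeq2, 2 with limma voom, 1 with no low-count filter and 2 with the additive model. Of those that rose from 1 h to 3 h, limma voom called 6 in WT cells (3 with edgeR), and limma voom, upper-quartile scaling and no filter each called 2 in CD47- cells (1 with edgeR). The 1 member with a less negative change in CD47- cells became 0 with limma voom. Leaving out each library in turn, the members higher and lower between the lines numbered 9 to 10 and 4 to 5. From 1 h to 6 h, 1 to 4 rose and 8 to 12 fell in WT cells, with 8 without the CD3+CD28 library at 6 h, and 1 rose and 16 to 20 fell in CD47- cells. From 1 h to 3 h, 2 to 4 rose and 2 to 4 fell in WT cells and 1 to 2 rose and 7 to 9 fell in CD47- cells. From 3 h to 6 h, 2 to 3 rose and 5 to 10 fell in WT cells and 0 rose and 13 to 16 fell in CD47- cells, and the fall of ZNF66 there (-0.77) was -0.16 (edgeR, adjusted p = 0.452) without the CD3+CD28+TSP1 library at 3 h. The difference between lines was called for 0 to 1 members in one direction and 9 to 11 in the other. Without ZNF714 the summed level of WT cells was 991.1 CPM in place of 1186 CPM. CD3+CD28 could not be compared with untreated cells without the only untreated library of a line. Members under about 1 CPM rest on few counts, and most of the 10 under the filter had overlapping ranges.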
